A study of Mus musculus with 12 samples.

Results

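Transcripts of 44 genes of the cell division cycle were followed in bulk RNA of mouse lung. The genes are a named list, 22 of DNA replication and the passage from G1 into S phase (G1/S) and 22 of G2 phase and mitosis (G2/M). Each of the 44 symbols matched 1 row of the 38349 genes in the deposited table, and all 44 passed the filter on low counts that left 22915 genes for testing. The lungs were those of wild-type mice, and the 12 libraries form 4 groups (Control, ALI, MSC and tpMSC) with 3 libraries in each. Per the series title, ALI is an acute lung injury produced by hypoxia and LPS (lipopolysaccharide, the bacterial outer-membrane component used to provoke inflammation), and the MSC and tpMSC groups are injured mice treated with MSCs (the usual short form of mesenchymal stromal cells) or tpMSCs. The sources used here do not say what separates tpMSC from MSC, nor the dose, time point, strain or age, and no group is labelled as injured and vehicle-treated. Nothing in the labels ties replicates to different mice, so each p-value reflects only how far these samples scatter, and that scatter may be technical.

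A cell that enters the cycle first loads the MCM helicase onto replication origins, then fires those origins in S phase with the replisome while ribonucleotide reductase and thymidylate synthesis supply deoxynucleotides. E2F transcription factors switch on most of these G1/S genes once the retinoblastoma family of pocket proteins is inactivated. After S phase a later set of genes, driven largely through FOXM1, B-MYB and the MuvB core, supplies cyclin A and B, CDK1, the spindle, the kinetochores and the anaphase-promoting complex (APC/C), whose activity ends mitosis. Most cells of the adult lung are quiescent, and these transcripts are widely used as a readout of cycling cells after injury.

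Most of the 44 genes were called higher in the 3 injured groups than in uninjured lung, 42 in ALI, 36 in MSC and 38 in tpMSC. Over all genes tested, 20.2% were called higher than in Control in ALI, 10.7% in MSC and 9.1% in tpMSC. Mean FPKM (a level scaled for both gene length and library depth) in the Control libraries ran over the 44 genes from 0.303 for Cenpf to 31.6 for Pcna, with a median of 1.47. In ALI the median of those 44 means was 3.62, in MSC 3.65 and in tpMSC 3.53. In edgeR's quasi-likelihood test (called at a Benjamini-Hochberg adjusted p under 0.05 over all genes tested), 42 of the 44 were called higher in ALI than in Control and 0 lower, where 20.2% of all genes tested were called higher and 19.6% lower. Neither the 22 G1/S nor the 22 G2/M genes gave a single call between MSC and ALI, where 10.2% of all genes were called in either direction, and between tpMSC and ALI 1 of 44 was called against 23.1% of all genes. In bulk tissue, more cycling cells and more transcript per cycling cell cannot be told apart.

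**Figure D1:**
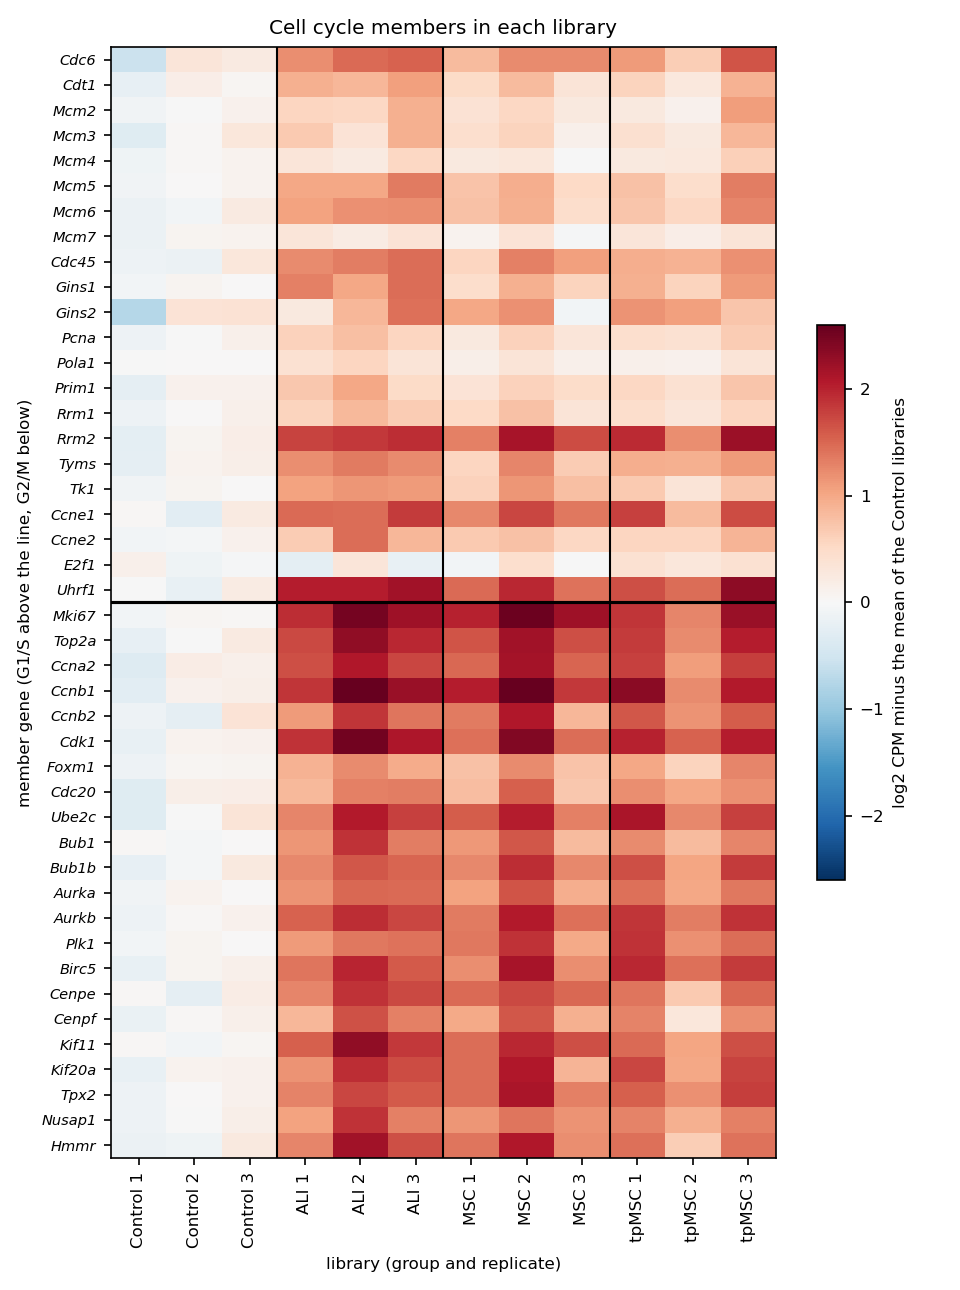
Colour gives, for each of the 44 genes (rows) in each of the 12 libraries (columns), the log2 CPM (counts scaled to library size) minus the mean of the 3 Control libraries, with red for higher and blue for lower. The ALI, MSC and tpMSC columns are red for most rows, more so for the G2/M genes below the line. The rows of E2f1, Mcm4, Mcm7 and Pola1 stay pale.

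The promoters of the 2 sets differ in known control elements, which are shown here because the sets are described apart below. Promoter windows of 300 bases (250 before to 50 after the RefSeq transcription start, build GRCm38.p6) were matched by symbol for 35 of the 44 genes, 18 G1/S and 17 G2/M. The stretches printed are the 160 bases before the start, 5′ to 3′ on the gene's own strand, for genes whose stretch lies outside every annotated exon and outside the gene's own annotated span. From the genes of each set that met this and held the motifs, up to 4 were taken. They were taken in order of the difference between ALI and Control, a choice made after their values were seen. Only 3 G1/S genes met these conditions, so all 3 are printed whatever the size of their difference. In the first 4, all G2/M genes, the capitals mark the CCAAT box (CCAAT, bound by NF-Y) and the cell cycle homology region or CHR (TTTGAA or TTTAAA, bound through the MuvB complex) on either strand. These are Mki67 (chr7:135716380-135716539, minus strand), Top2a (chr11:99024190-99024349, minus strand), Kif11 (chr19:37376222-37376381, plus strand) and Cenpf (chr1:189688087-189688246, minus strand).
Mki67: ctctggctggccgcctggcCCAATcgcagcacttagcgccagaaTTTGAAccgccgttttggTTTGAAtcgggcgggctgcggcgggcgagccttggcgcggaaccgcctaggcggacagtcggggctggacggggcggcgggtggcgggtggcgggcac
Top2a: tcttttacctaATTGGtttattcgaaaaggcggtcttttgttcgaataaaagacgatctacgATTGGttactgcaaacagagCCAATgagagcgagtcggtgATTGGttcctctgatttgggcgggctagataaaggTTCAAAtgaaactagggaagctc
Kif11: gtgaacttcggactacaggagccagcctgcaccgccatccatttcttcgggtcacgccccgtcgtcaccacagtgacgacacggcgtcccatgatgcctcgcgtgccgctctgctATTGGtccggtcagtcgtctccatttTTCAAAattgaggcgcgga
Cenpf: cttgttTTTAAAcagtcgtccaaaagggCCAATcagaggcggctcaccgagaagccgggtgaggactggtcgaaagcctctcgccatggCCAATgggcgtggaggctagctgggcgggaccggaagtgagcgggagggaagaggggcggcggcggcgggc
In the next 3, all G1/S genes, the capitals mark only E2F sites (TTTCCCGC, TTTGGCGC, TTTCGCGC or TTTGCCGC, either strand, where overlapping matches run together). These are Mcm6 (chr1:128359706-128359865, minus strand), Mcm5 (chr8:75109349-75109508, plus strand) and Pola1 (chrX:93632156-93632315, minus strand).
Mcm6: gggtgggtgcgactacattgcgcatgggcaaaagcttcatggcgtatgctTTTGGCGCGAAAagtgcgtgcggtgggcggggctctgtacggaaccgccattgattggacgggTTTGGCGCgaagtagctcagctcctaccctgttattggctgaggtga
Mcm5: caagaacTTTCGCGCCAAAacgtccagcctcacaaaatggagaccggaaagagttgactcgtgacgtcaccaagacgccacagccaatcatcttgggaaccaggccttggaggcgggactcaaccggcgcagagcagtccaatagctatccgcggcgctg
Pola1: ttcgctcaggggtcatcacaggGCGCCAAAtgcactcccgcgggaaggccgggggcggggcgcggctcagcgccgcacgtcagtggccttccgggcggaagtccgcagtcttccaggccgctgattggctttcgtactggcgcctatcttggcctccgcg
The Top2a stretch holds 5 marked sites, the Cenpf and Mki67 stretches 3 each and the Kif11 stretch 2, a CCAAT box and a CHR close to the start. The Mcm6 stretch holds 3 E2F matches, the Mcm5 stretch 2 and the Pola1 stretch 1.

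Across the whole 300-base windows a CCAAT box was found in 15 of 17 G2/M genes and 12 of 18 G1/S genes, against 41.9% of the 13919 genes tested here that have a window and 41.1% of all 27025 genes with one. A CHR was found in 15 of 17 G2/M genes and 7 of 18 G1/S genes, against 24.3% of the genes tested and 30.6% of all. Both elements together were present in 14 of 17 G2/M genes, the exceptions being Birc5, Bub1 and Nusap1, and in 5 of 18 G1/S genes. An E2F site was found in 8 of 18 G1/S genes (Cdc6, Cdt1, Mcm3, Mcm5, Mcm6, Mcm7, Pola1 and Uhrf1) and in 1 of 17 G2/M genes, Cdk1. The shares over all genes were 4.07% of those tested and 2.6% of all. The windows of E2f1, Tyms and Nusap1 held none of these letters. A match is a description of the sequence and not evidence of a bound factor.

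**Figure D2:**
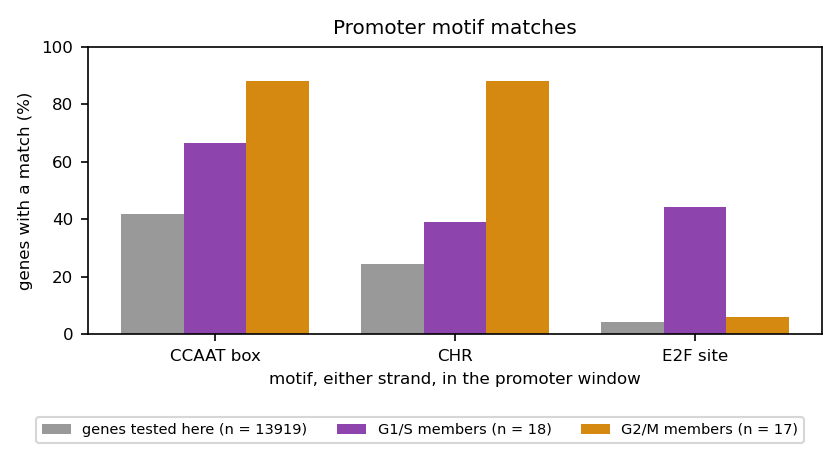
Bars give the percent of genes with at least 1 match to each motif, on either strand of the 300-base promoter window. Only genes with a window are included, 13919 of the genes tested (grey), 18 G1/S genes (purple) and 17 G2/M genes (orange). The G2/M bars reach 88.2% for both the CCAAT box and the CHR, and the G1/S bar is the tallest of the 3 for the E2F site at 44.4%.

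Library totals ran from 53083002 to 70209229 counts, and the 44 genes had between 115 counts (Ccne1 in a Control library) and 8758 (Pcna) per library. The lung epithelial marker list (Sftpc, Sftpb and 5 others) summed to at least 13110 FPKM in every library. Some libraries were the highest of their group for many of the 44 genes. With group means subtracted, the median correlation was 0.604 between G1/S genes and 0.868 between G2/M genes. The genes thus move together and are not separate evidence about a library. Control replicate 3 was the highest Control library for 17 genes of each set. In tpMSC, replicate 3 was the highest for 19 G1/S and 13 G2/M genes. MSC replicate 2 was the highest MSC library for all 22 G1/S and all 22 G2/M genes, tpMSC replicate 2 was the highest of its group for 0, and ALI replicate 2 was the highest ALI library for 20 of 22 G2/M genes. MSC replicate 2 also had the highest summed alveolar macrophage markers (633 FPKM, against 202 and 23.3 in replicates 1 and 3), and the part of that difference in the results was not tested.

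The first comparison asks how the injury changed these genes, ALI against Control. Among the G1/S genes 20 of 22 were higher, with a median log2 fold change of 0.99, and among the G2/M genes 22 of 22 were higher, with a median of 1.63. Over all 22915 genes the median was -0.02. All 3 ALI libraries lay above all 3 Control libraries in FPKM for 41 of the 44 genes, which was so for 23.8% of all genes tested. The 3 that overlapped were Mcm3, Gins2 and E2f1. Among the called genes, 11 G1/S and all 22 G2/M genes had an estimated rise of at least 2-fold. The test was against no difference, so a rise of at least 2-fold was not itself tested. For Foxm1 the unadjusted interval reached down to a log2 fold change of 0.63, which is below 2-fold. No share of all genes is given for this count. The rise ran up to 4.97-fold for Ccnb1.

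The origin licensing genes were all 8 called higher, but by unequal amounts. Mcm4, a subunit of the replicative helicase, read 7.62, 8.41 and 8.83 FPKM in Control, 9.89, 9.31 and 11.4 in ALI, 9.92, 10.1 and 8.14 in MSC, and 9.83, 9.70 and 12.2 in tpMSC. Mcm7, another subunit, read 6.69, 7.72 and 7.88 FPKM in Control, 8.91, 8.14 and 9.04 in ALI, 7.87, 9.35 and 7.16 in MSC, and 9.17, 8.07 and 8.99 in tpMSC. For both genes every ALI library was above every Control library, while the MSC libraries overlapped both groups. Mcm4 rose by a log2 fold change of 0.36 ± 0.119 (SE, adjusted p = 0.0303) and Mcm7 by 0.29 ± 0.101 (adjusted p = 0.0404), the smallest called rise of the 44. The other helicase subunits rose by 0.65 (Mcm3), 0.68 (Mcm2), 1.13 (Mcm5) and 1.14 (Mcm6), and the loaders Cdc6 and Cdt1, which place the helicase on DNA, by 1.37 and 0.95. The calls of Mcm2, Mcm3, Mcm4 and Mcm7 are the 4 of the 42 that did not hold under every alternative. All 4 were lost without Control replicate 1, Control replicate 2 or ALI replicate 3, Mcm3, Mcm4 and Mcm7 also without ALI replicate 1, and Mcm4 and Mcm7 with no filter on low counts or in limma on log2 FPKM. Of the 20 G1/S calls, 17 remained in limma on log2 of FPKM plus 1. With a replicate block 19 remained, as without Control replicate 3, MSC replicate 1, tpMSC replicate 1 or tpMSC replicate 3. The largest adjusted p over the alternatives was 0.169, for Mcm7 without Control replicate 1. Exons of Mcm7 overlap those of Ap4m1, Cops6 and the microRNA genes Mir25 and Mir93.

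Of 6 replisome genes 5 were called higher. Pcna, the sliding clamp that tethers DNA polymerases and the most abundant of the 44 transcripts, read 29.0, 31.2 and 34.7 FPKM in Control, 46.2, 51.4 and 44.3 in ALI, 37.6, 47.2 and 38.6 in MSC, and 42.2, 40.2 and 47.9 in tpMSC. No library of the 3 injured groups was as low as any Control library, and the ALI rise was 0.64 ± 0.110 (log2, SE, adjusted p = 0.000711). Gins2, a subunit of the GINS complex that completes the active helicase, read 1.44, 3.1 and 3.13 FPKM in Control, 2.77, 4.17 and 6.22 in ALI, 4.88, 5.45 and 2.27 in MSC, and 5.41, 4.89 and 3.82 in tpMSC. Its libraries were widely spread within groups, with 1 Control and 1 MSC library well below the others, and its ALI difference of 0.84 ± 0.377 was not called (adjusted p = 0.0982). Its partner Gins1 rose by 1.28 ± 0.193 and Cdc45, the third component of that helicase, by 1.33 ± 0.195. The DNA primase and polymerase alpha subunits Prim1 and Pola1 rose by 0.74 and 0.43.

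All 4 genes of deoxynucleotide supply were higher. Rrm2, the S-phase subunit of ribonucleotide reductase, read 1.69, 2.11 and 2.26 FPKM in Control, 6.59, 6.85 and 7.33 in ALI, 5.00, 8.83 and 6.43 in MSC, and 7.65, 4.53 and 9.08 in tpMSC. Rrm1, the large subunit of the same enzyme, read 3.38, 3.73 and 4.13 FPKM in Control, 5.36, 6.35 and 5.64 in ALI, 5.34, 6.29 and 4.66 in MSC, and 5.08, 4.51 and 5.31 in tpMSC. Every library of the injured groups exceeded every Control library for both subunits. In ALI Rrm2 rose 3.56-fold (log2 1.83 ± 0.254, adjusted p = 0.000166) and Rrm1 1.61-fold (log2 0.69 ± 0.117, adjusted p = 0.000693). Thymidylate synthase (Tyms) and thymidine kinase (Tk1), which make and salvage thymidylate, rose by 1.25 and 1.10.

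The G1/S control genes held the largest G1/S rise and the single gene of the 44 whose log2 difference was below 0 in ALI. Uhrf1, which reads hemimethylated DNA behind the replication fork, read 1.36, 1.20 and 1.60 FPKM in Control, 5.49, 5.42 and 6.05 in ALI, 3.87, 5.38 and 3.65 in MSC, and 4.40, 3.68 and 6.67 in tpMSC. Its rise in ALI was 4.24-fold (log2 2.08 ± 0.221, adjusted p = 2.5e-05), with a wide gap between the Control and all other libraries. E2f1, the activator E2F best known for driving S-phase entry, read 3.74, 3.13 and 3.34 FPKM in Control, 2.76, 4.00 and 2.82 in ALI, 3.21, 4.58 and 3.34 in MSC, and 4.43, 4.03 and 4.30 in tpMSC. Of the ALI libraries 1 lay above and 2 lay below all Control libraries, and the difference was -0.03 ± 0.171 (log2, SE, adjusted p = 0.910), with a 95% interval from -0.40 to 0.34. Cyclin E1 (Ccne1) and cyclin E2 (Ccne2), the CDK2 partners at S-phase entry, rose by 1.59 and 1.03.

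**Figure D3:**
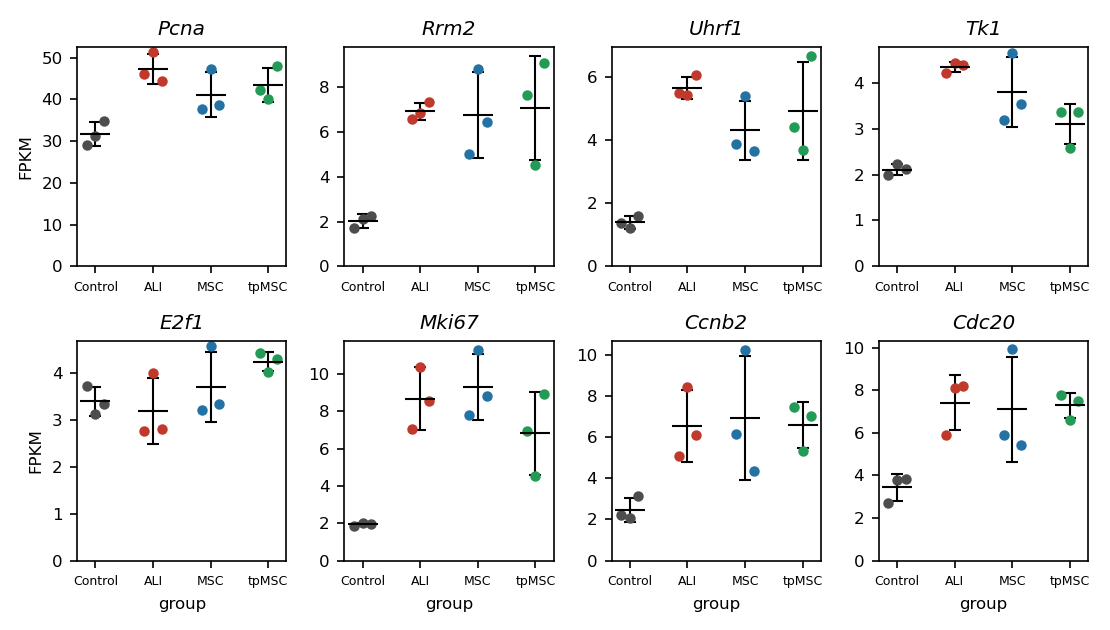
Each panel plots FPKM on an axis from 0 for 1 gene in the 4 groups, with a point per library and the mean ± SD as a black bar (n = 3). For all genes shown but E2f1 the ALI points lie clear of the Control points. The MSC and tpMSC points mostly lie near the ALI points, though the tpMSC points of Tk1 lie below them. The MSC spread is wider than that of ALI in every panel, and the tpMSC spread is narrower than that of ALI for E2f1, Ccnb2 and Cdc20.

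The proliferation markers had the highest median rise of the role groups, 2.11 on the log2 scale. Mki67, which encodes the Ki-67 antigen found in cycling cells, read 1.84, 2.01 and 1.98 FPKM in Control, 7.06, 10.4 and 8.57 in ALI, 7.81, 11.3 and 8.80 in MSC, and 6.96, 4.54 and 8.94 in tpMSC. Top2a, the topoisomerase that untangles replicated chromosomes, read 1.55, 1.79 and 2.13 FPKM in Control, 5.75, 8.56 and 6.75 in ALI, 5.66, 8.11 and 5.65 in MSC, and 6.35, 4.09 and 7.23 in tpMSC. Control lay well below all other libraries, and the lowest injured library for both was tpMSC replicate 2. In ALI Mki67 (chr7:135689784-135716361, GRCm38) rose 4.66-fold (log2 2.22 ± 0.231, adjusted p = 2.2e-05) and Top2a 4.02-fold (log2 2.01 ± 0.232, adjusted p = 4.5e-05).

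The mitotic cyclins, their kinase CDK1 and the transcription factor FOXM1 were all 5 higher. Ccnb2, a B-type cyclin, read 2.22, 2.05 and 3.13 FPKM in Control, 5.09, 8.47 and 6.09 in ALI, 6.18, 10.3 and 4.38 in MSC, and 7.45, 5.33 and 7.02 in tpMSC. Ccna2, the cyclin A of S phase and early mitosis, read 1.48, 2.15 and 2.07 FPKM in Control, 5.78, 7.64 and 6.04 in ALI, 5.30, 8.36 and 5.29 in MSC, and 6.42, 3.90 and 6.35 in tpMSC. The MSC libraries were the most spread for Ccnb2, and no injured library overlapped Control for either cyclin. Ccnb2 rose by 1.47 ± 0.303 (adjusted p = 0.00236) and Ccna2 by 1.83 ± 0.241 (adjusted p = 0.000116) on the log2 scale. Cyclin B1 (Ccnb1) rose by 2.31 ± 0.338 and its kinase Cdk1 by 2.19 ± 0.275, while the transcription factor Foxm1, which drives many G2/M genes, rose by 1.03 ± 0.183, the smallest difference of the 22.

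All 4 genes of the APC/C and the spindle checkpoint were higher. Cdc20, the APC/C activator, read 2.72, 3.76 and 3.83 FPKM in Control, 5.91, 8.08 and 8.21 in ALI, 5.91, 9.93 and 5.44 in MSC, and 7.76, 6.61 and 7.48 in tpMSC. Ube2c, the ubiquitin-conjugating enzyme that works with the APC/C, read 0.99, 1.22 and 1.55 FPKM in Control, 2.88, 4.97 and 4.07 in ALI, 3.72, 5.07 and 3.04 in MSC, and 5.36, 2.88 and 4.14 in tpMSC. The Control range stayed below all 9 other libraries for both. Cdc20 rose by 1.17 ± 0.228 (adjusted p = 0.00168) and Ube2c by 1.72 ± 0.282 (adjusted p = 0.000523), and the checkpoint kinases Bub1 and Bub1b rose by 1.49 and 1.46.

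The mitotic kinases and survivin were 4 of 4 higher. Plk1, the polo kinase of centrosome maturation and mitotic entry, read 1.41, 1.57 and 1.51 FPKM in Control, 3.15, 3.71 and 3.84 in ALI, 3.90, 5.52 and 2.95 in MSC, and 5.49, 3.33 and 4.02 in tpMSC. Birc5 (survivin), a subunit of the chromosomal passenger complex, read 0.88, 1.07 and 1.11 FPKM in Control, 2.58, 3.87 and 2.97 in ALI, 2.37, 4.45 and 2.32 in MSC, and 3.93, 2.70 and 3.48 in tpMSC. Both were above Control in all 9 injured libraries. Plk1 rose by 1.31 ± 0.228 (adjusted p = 0.000790) and Birc5 by 1.68 ± 0.262 (adjusted p = 0.000373). Aurora B (Aurkb), the kinase of that same complex, rose by 1.74 and Aurora A (Aurka), of the spindle poles, by 1.40.

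All 7 kinetochore, kinesin and spindle genes were higher. Nusap1, a microtubule-bundling protein of the spindle, read 1.42, 1.57 and 1.74 FPKM in Control, 3.16, 5.53 and 3.77 in ALI, 3.5, 4.1 and 3.47 in MSC, and 3.83, 2.91 and 3.76 in tpMSC. Tpx2, which activates Aurora A on the spindle, read 1.18, 1.31 and 1.41 FPKM in Control, 3.09, 4.13 and 3.78 in ALI, 3.60, 5.61 and 3.21 in MSC, and 3.80, 2.90 and 4.38 in tpMSC. ALI replicate 2 was the highest library for Nusap1 and MSC replicate 2 for Tpx2. Nusap1 rose by 1.46 ± 0.194 (adjusted p = 0.000126) and Tpx2 by 1.55 ± 0.217 (adjusted p = 0.000174). The spindle motor Kif11 rose by 1.93, the motor of cell division Kif20a by 1.63, the kinetochore motor Cenpe by 1.64, the kinetochore protein Cenpf by 1.31 and the spindle-associated Hmmr by 1.75.

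The groups' averages over the genes show the 2 sets side by side. For each library the log2 CPM of each gene was set against its Control mean and averaged over the set, which gives no test because the genes were chosen with earlier results known. Over the G1/S genes the average was 0.97 ± 0.0960 (SD, n = 3) in ALI, 0.70 ± 0.216 in MSC and 0.78 ± 0.240 in tpMSC. Over the G2/M genes it was 1.63 ± 0.298 in ALI, 1.52 ± 0.385 in MSC and 1.44 ± 0.347 in tpMSC. The G2/M average exceeded the G1/S average in all 9 injured libraries, by 0.465 in ALI replicate 1, the least, and by 1.02 in MSC replicate 2, the most. Control libraries themselves ranged from -0.165 to 0.142 for G1/S and from -0.154 to 0.141 for G2/M.

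**Figure D4:**
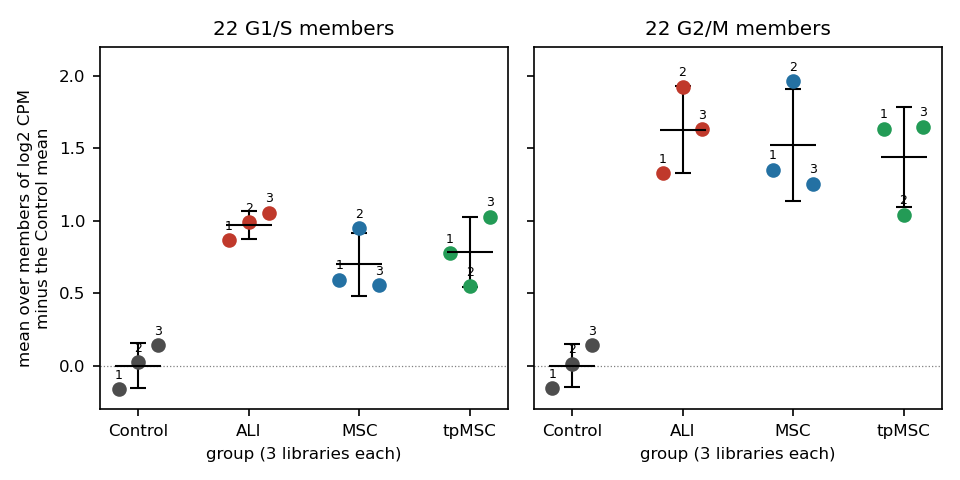
Points give, for each library, the mean over the 22 G1/S (left) or 22 G2/M (right) genes of log2 CPM minus the Control mean, numbered by replicate, with the group mean ± SD as a black bar. The ALI, MSC and tpMSC ranges overlap one another in both panels and all lie above Control. MSC replicate 2 lies above the other MSC libraries in both panels, and tpMSC replicate 2 is the lowest tpMSC library in both.

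The second question was whether these genes differed between treated and untreated injury. Between MSC and ALI 0 of 44 genes were called by edgeR. An unadjusted p under 0.05 was seen for 6 of 22 G1/S and 0 of 22 G2/M genes, where 5631 of the 22915 genes had one. That share over all genes is larger than 6 of 44 and slightly smaller than 6 of 22. These 6, all G1/S genes with lower values in MSC, were Cdt1, Mcm6, Gins1, Pcna, Pola1 and Tyms. DESeq2 called 1 of the 44, Gins1. The median log2 fold change was -0.27 over the G1/S genes and -0.09 over the G2/M genes, where that over all genes was 0.02. Values below 0 were seen for 21 of 22 G1/S and 17 of 22 G2/M genes, and for 10952 of the 22915 genes. Gins1, picked for description here after its values were seen, had the lowest log2 fold change, -0.60 (95% interval from -1.02 to -0.19, adjusted p = 0.0677, with a range from 0.0190 to 0.227 over the alternatives). It read 1.35, 1.5 and 1.45 FPKM in Control, 3.48, 2.77 and 3.83 in ALI, 1.99, 2.73 and 2.14 in MSC, and 2.72, 2.08 and 3.02 in tpMSC. Its ALI and MSC libraries did not overlap, but MSC replicate 2 came close to the lowest ALI library. For 43 of 44 genes the unadjusted 95% interval lay within a 2-fold difference in either direction, Gins1 being the exception. MSC replicate 2 was the highest MSC library for each of the 44 genes. Without it, 3 G1/S genes (Gins1, Pcna and Tyms) and 1 G2/M gene (Cdk1) were called lower in MSC.

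Between tpMSC and ALI 1 of 44 genes was called, Tk1, chosen for description here after its values were seen. Tk1 read 1.98, 2.22 and 2.13 FPKM in Control, 4.22, 4.44 and 4.39 in ALI, 3.18, 4.65 and 3.55 in MSC, and 3.36, 2.59 and 3.36 in tpMSC. Its 3 tpMSC libraries lay between the Control and the ALI ranges without touching either, and it was lower than in ALI by a log2 difference of -0.51 (95% interval from -0.82 to -0.20, adjusted p = 0.0226). The call was lost without any 1 of the ALI replicates or without tpMSC replicate 2, with an adjusted p of up to 0.0963. Exons of Tk1 overlap those of Afmid. Without tpMSC replicate 3, 4 G1/S genes were called lower, and without ALI replicate 2 the only call was E2f1, higher. Of the 21 G1/S genes that edgeR did not call, 13 stayed uncalled under every alternative, as did all 22 G2/M genes. limma-voom with sample quality weights called more G1/S genes, as given at the end. The medians were -0.23 for G1/S and -0.18 for G2/M genes, and 4 of 44 genes had an unadjusted p under 0.05, where 8081 of the 22915 genes did, a larger share. Of these 4, Tk1, Pola1 and Kif11 had lower values and E2f1 higher ones (log2 0.39, adjusted p = 0.129). The interval lay within a 2-fold difference for 42 of 44, the exceptions being Ccnb1 and Hmmr.

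Between tpMSC and MSC 0 of 44 genes were called by edgeR, 0 passed an unadjusted p under 0.05, and DESeq2 called 0 as well, where 0.0305% of all genes, 7 in number, were called. The medians were 0.11 for G1/S and -0.05 for G2/M genes. The lowest log2 fold changes were those of Mki67 (-0.42) among G2/M and Tk1 (-0.27) among G1/S genes, and 41 of 44 intervals lay within a 2-fold difference. The tests of MSC and of tpMSC against ALI share the ALI libraries, so their values stand side by side and are not independent.

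Both treated groups were still above Control. In MSC 14 of 22 G1/S and 22 of 22 G2/M genes were higher than in Control and 0 lower, where 10.7% of all genes were called higher and 8% lower. All MSC libraries lay above all Control libraries for 39 of 44 genes, against 18.2% of all genes. In tpMSC 16 of 22 G1/S and 22 of 22 G2/M genes were higher and 0 lower, where 9.1% of all genes were called higher and 6.79% lower, and the libraries did not overlap for 42 of 44 genes, against 17.1% of all genes. The G1/S genes not called in MSC were Mcm2, Mcm3, Mcm4, Mcm7, Gins2, Pola1, Prim1 and E2f1, and those not called in tpMSC were Mcm2, Mcm3, Mcm7, Gins2, Pola1 and E2f1. Mki67 stood at log2 2.27 above Control in MSC and 1.85 in tpMSC, Rrm2 at 1.75 and 1.84, and Uhrf1 at 1.64 and 1.86. The G1/S counts depended on single libraries: in MSC the 14 became 7 without Control replicate 1 or MSC replicate 2 and 8 without Control replicate 2, and in tpMSC the 16 became 8 without Control replicate 1 and 9 without tpMSC replicate 3. All 3 comparisons with Control share the same 3 libraries.

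**Figure D5:**
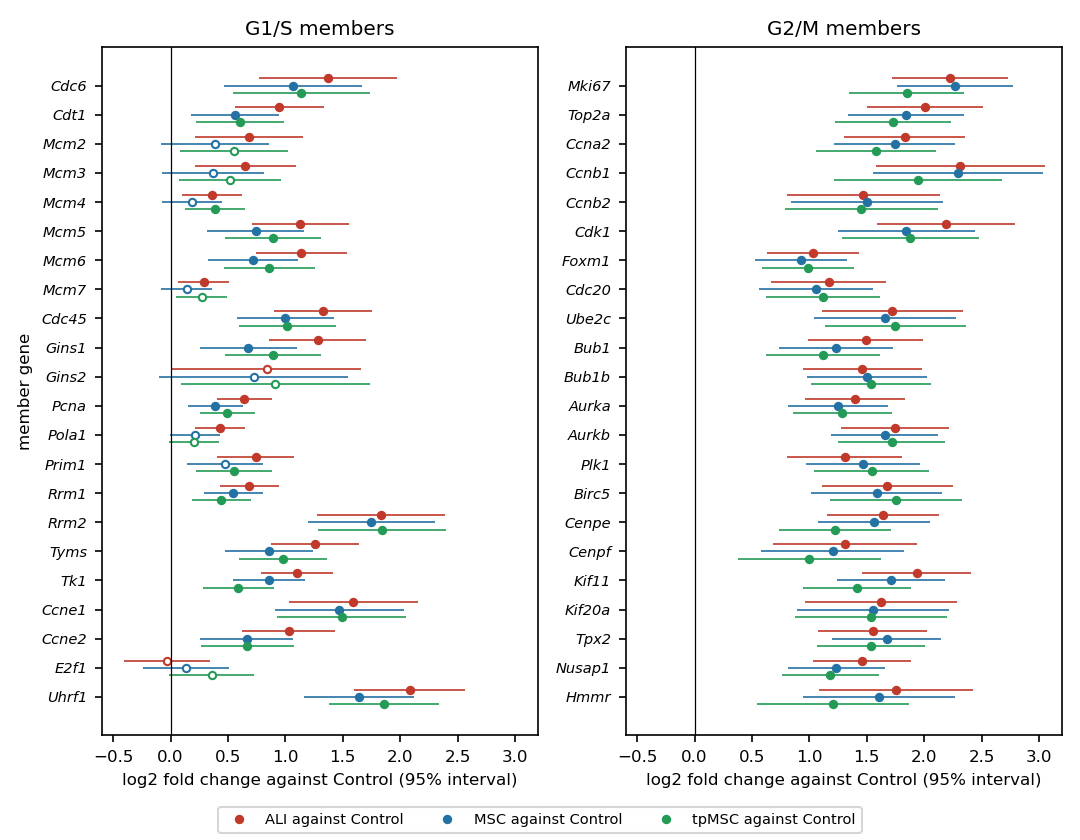
Points give the log2 fold change against Control of each gene in ALI (red), MSC (blue) and tpMSC (green), with the unadjusted 95% interval as a line, filled where the gene was called and open where it was not. The 3 intervals of a gene overlap in every row, all G2/M points are filled, and the open points are those of Mcm2, Mcm3, Mcm4, Mcm7, Gins2, Pola1, Prim1 and E2f1.

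Other genes of the same machinery were read from 6 lists of 121 genes, and the values given for them are log2 fold changes unless said to be FPKM. Over all genes 20.2% were called higher and 19.6% lower in ALI. Of 35 further replication genes 20 were higher in ALI and 0 lower (median 0.30, where that over all genes was -0.02). The origin-firing factor Mcm10 rose by 2.08 from 0.217 FPKM in Control, the flap endonuclease Fen1 by 1.09, the clamp-loader subunit Rfc5 by 0.95 and the histone mRNA binder Slbp by 0.59. Of 44 further mitotic genes 37 were higher and 1 lower (median 1.29): the kinesin Kif2c rose by 2.29, the kinetochore scaffold Knl1 by 2.16, and the condensin subunits Ncapg and Smc2 by 2.06 and 1.13. The 1 that fell was Wee1, the kinase that holds CDK1 inactive, at -0.68 (adjusted p = 0.00239). Of 15 replication stress and recombination genes 10 were higher and 1 lower, with Clspn at 1.94, Exo1 at 1.74 and Brca1 at 1.56.

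Upstream regulators of the cycle are given beside the shares over all genes, 20.2% higher and 19.6% lower in ALI. Among 14 pocket proteins and E2F partners 7 were higher and 1 lower in ALI: the repressor E2f8 rose by 1.94, the E2F partner Tfdp1 by 0.67, the MuvB subunit Lin54 by 0.48 and E2f4 by 0.38, and the pocket protein Rbl2 fell by 0.21, a call lost without Control replicate 2, ALI replicate 1 or ALI replicate 2. Among the 6 D cyclins and their kinases 1 was higher and 1 lower, near those shares. Ccnd2 (cyclin D2) fell from 15.5 ± 1.02 (SD, n = 3) to 9.55 ± 1.20 FPKM, a log2 fold change of -0.63 (adjusted p = 0.000947), and Cdk2 rose by 0.20 (adjusted p = 0.0295), a call that did not hold under 8 of 21 alternatives. Among 7 CDK inhibitors, which restrain the cycle, 2 were higher and 1 lower, also near those shares. Cdkn1a (p21, a p53 target that halts the cycle) rose from 8.10 ± 0.627 to 22.7 ± 1.58 FPKM, a log2 fold change of 1.54 (adjusted p = 2.9e-05), and Cdkn2d rose by 1.05, while Cdkn2c fell by 0.60.

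Between MSC and ALI 2 of 6 D cyclins and kinases, 2 of 7 CDK inhibitors and 2 of 14 pocket proteins and E2F partners were called, where 10.2% of all genes were. Between tpMSC and ALI the counts were 2, 4 and 0, where 23.1% of all genes were called, and nothing particular to these lists is read from them. Of the 14, 3 had an unadjusted p under 0.05, DESeq2 called 0 and limma-voom with sample quality weights called 6 lower. Ccnd2 was higher than in ALI in MSC (0.45, adjusted p = 0.0283) and in tpMSC (0.54, adjusted p = 0.00560), as was Cdk6 (0.44, adjusted p = 0.0482, and 0.52, adjusted p = 0.0122). Cdkn2d was lower in MSC (-0.71, adjusted p = 0.00213) and in tpMSC (-0.63, adjusted p = 0.00153), Cdkn2b was lower in both (-0.35 and -0.72), and in tpMSC Cdkn1c (1.00, adjusted p = 0.00149) and Cdkn2c (0.64, adjusted p = 0.00966) were higher. For Cdkn1c the test of tpMSC against MSC itself gave an adjusted p of 0.251. Cdkn1a read 24.2 ± 7.13 FPKM in MSC and 24.1 ± 2.06 in tpMSC, and its differences from ALI were 0.04 and 0.06, not called. In MSC Rbl2 was higher than in ALI (0.25) and E2f4 lower (-0.27). Of the 35 further replication genes 3 were lower in MSC, led by Pole2 (-0.60) and Rfc5 (-0.39), and 3 were lower in tpMSC, led by Rfc4 (-0.51) and Orc3 (-0.27). Of the 44 further mitotic genes 0 were called in either comparison by edgeR, with 1 in MSC and 6 in tpMSC at an unadjusted p under 0.05, while DESeq2 called 0 and 2. Of the 15 replication stress genes 0 were called by edgeR or DESeq2, with 1 and 2 at an unadjusted p under 0.05. Of the 8 MSC calls among the named genes of these lists 1 held under every alternative, that of Cdkn2d, and of the 9 tpMSC calls 5 did.

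The further lists were also read against Control in both treated groups. Over all genes 10.7% were called higher and 8% lower in MSC, and 9.1% higher and 6.79% lower in tpMSC. Of the 44 further mitotic genes 33 were higher and 1, Wee1, lower in MSC, and the same numbers held in tpMSC. Knl1 stood at 2.08 and Kif2c at 2.16 in MSC, and Cdca8 at 1.9 and Kif2c at 1.75 in tpMSC. Of the further replication genes 8 were higher in MSC, and 16 higher and 1 (Orc3) lower in tpMSC, with Mcm10 at 1.46 and 1.72. Of the replication stress genes 8 were higher and 1 lower in MSC, and 7 higher and 1 lower in tpMSC. E2f8 stood at 1.41 and 1.45, and Cdkn1a at 1.59 and 1.61.

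Markers of cell types that could bring cycling or immature cells were read beside these genes. Over all genes tested, 20.2% were called higher and 19.6% lower in ALI than in Control. Between MSC and ALI 10.2% were called in either direction, and between tpMSC and ALI 23.1%. Counts near these shares are not read as results about a cell type. All 8 neutrophil markers were higher in ALI than in Control and all 8 were lower in MSC and in tpMSC than in ALI. Their summed level was 144 to 238 FPKM in Control, 3749 to 4248 in ALI, 471 to 990 in MSC and 461 to 615 in tpMSC. The 6 markers of neutrophil precursors (Elane, Mpo, Prtn3, Ctsg, Ms4a3 and Cebpe) summed to between 0.45 and 1.29 FPKM in the 12 libraries, and Elane, Mpo, Ctsg and Ms4a3 had too few counts to be tested. Of 5 erythroid precursor markers 4 were lower in ALI, with sums of 28.1 to 45.5 FPKM in Control and 10.8 to 12.2 in ALI. Monocyte markers were higher for 4 of 5 in ALI (46.9 to 54.0 against 96.7 to 104 FPKM) and 3 of 5 were lower in tpMSC than in ALI. Plasma cell markers were higher for 2 of 4 in ALI (64.2 to 76.4 against 150 to 221 FPKM), and B cell markers for 0 of 4 by edgeR or DESeq2, also at an unadjusted p under 0.05. Endothelial markers were lower in ALI for 5 of 5, epithelial ones for 5 of 7 with 2 higher, alveolar macrophage ones for 3 of 6 and T cell ones for 2 of 6, and fibroblast markers were higher for 2 of 4. Heart muscle markers, a sign of adjoining tissue, were called in ALI for 0 of 4 tested by edgeR or DESeq2 (1 at an unadjusted p under 0.05) and summed to between 9.56 and 54.7 FPKM. Between MSC and ALI the calls among the other lists were 2 of 6 alveolar macrophage, 1 of 5 endothelial and 1 of 7 epithelial markers, all higher. Between tpMSC and ALI, 5 of 5 endothelial, 4 of 6 alveolar macrophage, 5 of 7 epithelial, 2 of 4 heart muscle and 1 of 5 erythroid precursor markers were higher, and 4 of 4 B cell, 2 of 4 plasma cell and 1 of 7 epithelial markers were lower. The part of these cell types in the 44 genes' levels was not tested.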

How the data were processed

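The authors deposited raw read counts and FPKM values of 38349 genes for 12 lung libraries, per the file headers. The libraries were made from poly(A) RNA with a dUTP-marked second strand, per the labels' protocols. The submitters' processing notes list, with no roles, edgeR, DESeq2, StringTie 1.3.4d, HISAT2 2.0.4, cutadapt 1.9 and GRCm38. How strand was treated in counting, the counter and its annotation were not given in the sources used here. Of the 44 genes, 13 share exon positions with another gene and 4 (Pcna, Tyms, Ccnb1 and Ccnb2) have a named pseudogene, which makes their counts less certain. Gene positions are from GENCODE vM21 (GRCm38), matched by gene ID, and promoters from RefSeq (GRCm38.p6), matched by symbol. The deposited table's own start and end equalled the GENCODE vM21 ones for 0 of the 44 genes, so none of the table's positions is printed.

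Groups came from the sample titles. After filterByExpr and TMM scaling, edgeR 4.0.16 (R 4.3.3) fitted 1 mean per group over all 12 libraries, which gave the standard errors and 95% intervals. The script was tested on simulated data. Per-library averages used log2 CPM with a prior count of 2. Alternatives were RLE size factors, DESeq2 1.42.0, no filter, a stricter filter (50 counts in 3 libraries), only the 6 libraries compared, a replicate block, limma 3.58.1 (voom with quality weights, and log2 of FPKM plus 0.1 or 1) and each library left out in turn. Every library's value is given for the 2 genes of highest mean FPKM in each role group and for those whose ALI call differed from most of their class. Such values are also given for Gins1 and Tk1, picked after their values were seen. From the further lists, the called genes of smallest p (up to 4 in ALI against Control, up to 2 otherwise) and those called against their list's direction are named, except some that are not reported here. The 44 genes and the lists were chosen with earlier results of these data known.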

Additional observations from a re-analysis of the deposited data

How the results depend on the processing

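No result of the 44 genes or the named genes changed direction where it was called under any alternative. The rise in ALI held for 16 of 20 called G1/S genes and 22 of 22 G2/M genes under every alternative, and with 1 library left out the counts were 16 to 20 and 22. For MSC against ALI the G1/S count of 0 became 1 with DESeq2 and 2 with voom weights, and 0 to 3 with 1 library left out, and the G2/M count of 0 became 0 to 1. For tpMSC against ALI the G1/S count of 1 became 8 with voom weights (7 lower, and E2f1 higher) and 0 to 4 with 1 library left out. Against Control, leaving out 1 library gave 7 to 16 G1/S and 21 to 22 G2/M genes for MSC, and 8 to 17 and 20 to 22 for tpMSC. Where an arm was left with 2 libraries, the spread was pooled over all groups. The causes of these shifts were not tested.

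Over all genes, the 9126 calls of ALI against Control became 7456 to 9460 with 1 library left out. MSC against ALI gave 2347 calls, 3604 with DESeq2 (1826 higher, 1778 lower), 1221 with only the 6 libraries compared (34.8% of them higher, against 49.1%), 3756 with voom weights, and 1084 to 2930 with 1 library left out. tpMSC against ALI gave 5299, 8444 with voom weights, and 3399 to 5800. tpMSC against MSC gave 7, 4 with RLE size factors, 670 with DESeq2, 0 with no filter, 0 with only the 6 libraries compared, 13 with log2 of FPKM plus 0.1, and 0 to 386. MSC against Control gave 4284 and 2465 to 4751, and tpMSC against Control 3643, 5952 with voom weights, and 1830 to 4247.

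No clear pairing was seen in the replicate numbers. For this, each gene's group mean was subtracted from its log2 CPM, which leaves only the differences within groups. Over all genes tested, these differences correlated at -0.108 to 0.104 in 18 pairs of same-numbered libraries. The best match in another group was of the same number for 4 of 12 libraries. With 3 libraries per group this check is weak and cannot exclude a pairing. With a replicate block the 7 calls of tpMSC against MSC over all genes became 0, and the counts of the 44 genes stayed within 1.5 times.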
